A study of Mus musculus with 6 samples.

Results

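Forkhead factors bind DNA through a shared winged-helix domain, and 4 of their subfamilies, Foxa, Foxp, Foxc and Foxo, were described here in the 2 tissue layers of the small intestine of late mouse embryos. The members were Foxa1, Foxa2, Foxa3, Foxp1, Foxp2, Foxp4, Foxc1, Foxc2, Foxo1 and Foxo3, and every probe set whose platform gene symbol equalled one of these names was taken. This gave 30 probe sets of 10 genes, out of 45037 probe sets and 18161 genes measured. A further probe set, which the platform assigns to Gm38485 and Foxo3 together, was left out.

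Foxa factors are known as pioneer factors of the endoderm, the layer that forms the gut epithelium, and in the mouse intestine Foxa1 and Foxa2 act in goblet and enteroendocrine cells. Foxp factors are mostly repressors that bind DNA as dimers and recruit corepressor complexes, and Foxc factors act in blood and lymph vessels. Foxo factors activate genes of cell cycle arrest, stress defence and fasting metabolism, and are sent out of the nucleus when insulin signalling through Akt phosphorylates them, a step that an RNA level does not show.

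Each of the 6 Affymetrix Mouse Genome 430 2.0 arrays carried RNA from tissue of 3 embryos, taken at E18.5 (a stage in days of gestation) from C57BL/6 females and pooled. The epithelium (pools A, B and C) had been shaken off the opened small intestine, duodenum to cecum, after 9 hours at 4 °C in a recovery solution, and the mesenchyme (pools A, B and C) was the wall that remained, with its muscle, vessels, nerves and blood cells. Both tissues therefore had the same strain, age and handling, no genotype or treatment set them apart, and the stated purpose was to compare their expression profiles. The 3 arrays per tissue were chosen from a larger set of pools by RT-PCR of 5 genes, of which Vil1 and Prkg2 stand for epithelium and the other 3 (Vim, Madcam1, Actg2) for mesenchyme. Whether pools came from separate litters is not stated, so that p-values concern pools and not litters. The limma fit weighs a spread shared over all probe sets (31.71 prior degrees of freedom) above a gene's own spread between pools (4 residual). Its p-values and standard errors therefore do not measure the pool spread of a single gene alone.

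Expression is given per probe set as a log2 value, and the number of arrays limits their precision. Array medians were 8.1, 8.6 and 8.3 in epithelium and 8.7, 8.5 and 8.7 in mesenchyme, and the median gene had a difference of -0.17. A difference is epithelium minus mesenchyme on the log2 scale, so that a positive one means higher in epithelium, and it is given with its standard error (SE) from limma over 3 arrays per tissue. A probe set or gene is called at an adjusted p under 0.05 with a difference of at least 2-fold. Enterocyte markers were higher in epithelium for 8 of 8 genes and smooth muscle markers higher in mesenchyme for 7 of 7. Among them, Vil1 and Actg2 were also RT-PCR genes used to choose the arrays, so that they are not independent of that choice. Endothelial and lymphatic markers were higher in mesenchyme for 7 of 8 genes, neuron and glia markers for 4 of 7, and immune markers for 4 of 7. The immune marker Csf1r was higher in epithelium without overlap (0.40) and was not called. These counts stand beside 8.2% of all genes called higher in epithelium and 15.9% called higher in mesenchyme. In bulk tissue, fewer cells of a type and less RNA per cell cannot be told apart. Spike-in controls of mesenchyme B averaged 9.80, below the 10.561 to 10.772 of the other 5 arrays. Pairs of arrays of the same tissue correlated at 0.978 to 0.984 over all probe sets.

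Foxa1 and Foxa3 were higher in epithelium, by 5.79-fold and 3.17-fold. Foxp2, Foxc2 and, near the 2-fold limit, Foxp1 were lower in epithelium than in mesenchyme. Foxa2, Foxp4, Foxc1, Foxo1 and Foxo3 were not called. Of the 10 genes, 5 were called, 2 higher in epithelium and 3 higher in mesenchyme, where 24.1% of all genes were called, 8.2% higher in epithelium and 15.9% higher in mesenchyme. Of the 30 probe sets, 10 were called, 2 higher in epithelium and 8 higher in mesenchyme, where 21.5% of all probe sets were called, 5.98% higher in epithelium and 15.5% higher in mesenchyme. At an adjusted p under 0.05 and any size, 6 of the 10 genes passed (2 higher in epithelium, 4 higher in mesenchyme), where 41.2% of all genes did (13.8% higher in epithelium, 27.4% higher in mesenchyme). The arrays of the 2 tissues did not overlap for 6 genes, where this held for 46.5% of all genes (16% higher in epithelium, 30.5% higher in mesenchyme). They did not overlap for 18 probe sets, 3 higher in epithelium and 15 higher in mesenchyme, where this held for 41.7% of all probe sets (12.4% higher in epithelium, 29.3% higher in mesenchyme). With 10 genes chosen by name, these shares describe the members and are not a test of them.

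Of the 3 Foxa genes 2 were called and 1 was not, and their promoter windows are shown for that reason. Each is the 250 bases before a RefSeq transcript start in the assembly GRCm38.p6, written 5' to 3' on the strand of the gene, and all 3 genes lie on the minus strand. The Foxa1 window is chr12:57546112-57546361, the first of 3 Foxa2 windows is chr2:148046970-148047219, and the Foxa3 window is chr7:19023540-19023789. The Foxa1 window lies inside the RefSeq span of its gene (chr12:57540628-57548029), downstream of the 5' end. The printed Foxa2 and Foxa3 windows lie directly before the 5' ends of theirs, so that the 3 windows are not alike in position. Capitals mark matches to the forkhead motif TGTTTAC or the TATA motif TATAAA, searched on both strands.
Foxa1: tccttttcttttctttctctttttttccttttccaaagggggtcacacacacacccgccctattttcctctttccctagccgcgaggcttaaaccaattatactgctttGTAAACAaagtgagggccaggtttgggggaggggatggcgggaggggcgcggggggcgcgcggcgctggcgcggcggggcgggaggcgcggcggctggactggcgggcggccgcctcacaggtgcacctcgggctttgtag
Foxa2: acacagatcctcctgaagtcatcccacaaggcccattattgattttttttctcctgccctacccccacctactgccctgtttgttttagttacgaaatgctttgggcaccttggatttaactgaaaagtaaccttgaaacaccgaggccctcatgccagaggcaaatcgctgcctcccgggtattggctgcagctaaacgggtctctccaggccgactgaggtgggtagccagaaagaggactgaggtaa
Foxa3: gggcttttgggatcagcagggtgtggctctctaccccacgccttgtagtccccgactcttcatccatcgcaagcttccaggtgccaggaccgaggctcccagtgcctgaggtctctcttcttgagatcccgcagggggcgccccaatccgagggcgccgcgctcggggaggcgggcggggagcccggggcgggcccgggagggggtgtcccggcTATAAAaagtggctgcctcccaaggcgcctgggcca

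The Foxa1 window held 1 forkhead motif, read as GTAAACA on the strand printed, at bases 141 to 135 before the start. That motif was found in 3.17% of 32851 windows of 27025 genes. The Foxa3 window held 1 TATA motif at bases 36 to 31 before the start, a motif found in 12.37% of the windows. The printed Foxa2 window held neither, and of the other 2 Foxa2 windows 1 held a TATA motif and a GATA motif (AGATAA, in 9.99% of windows). The GC content of the printed windows was 62.0% for Foxa1, 50.8% for Foxa2 and 68.8% for Foxa3, against a median of 52.4% over all windows. The observed over expected ratio of CpG was 0.89, 0.38 and 0.61 in that order, against a median of 0.37. The other 2 Foxa2 windows had a CpG ratio of 0.73 each and a GC content of 67.2% and 54.4%, so that the printed window does not stand for all starts of Foxa2. RefSeq windows were found for 8 of the 10 members, 12 windows in all, and the windows of Foxp1, Foxp4, Foxc1, Foxo1 and Foxo3 held no match to the 3 motifs. The motif matches describe letters in these windows and nothing was measured on binding.

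**Figure D1:**
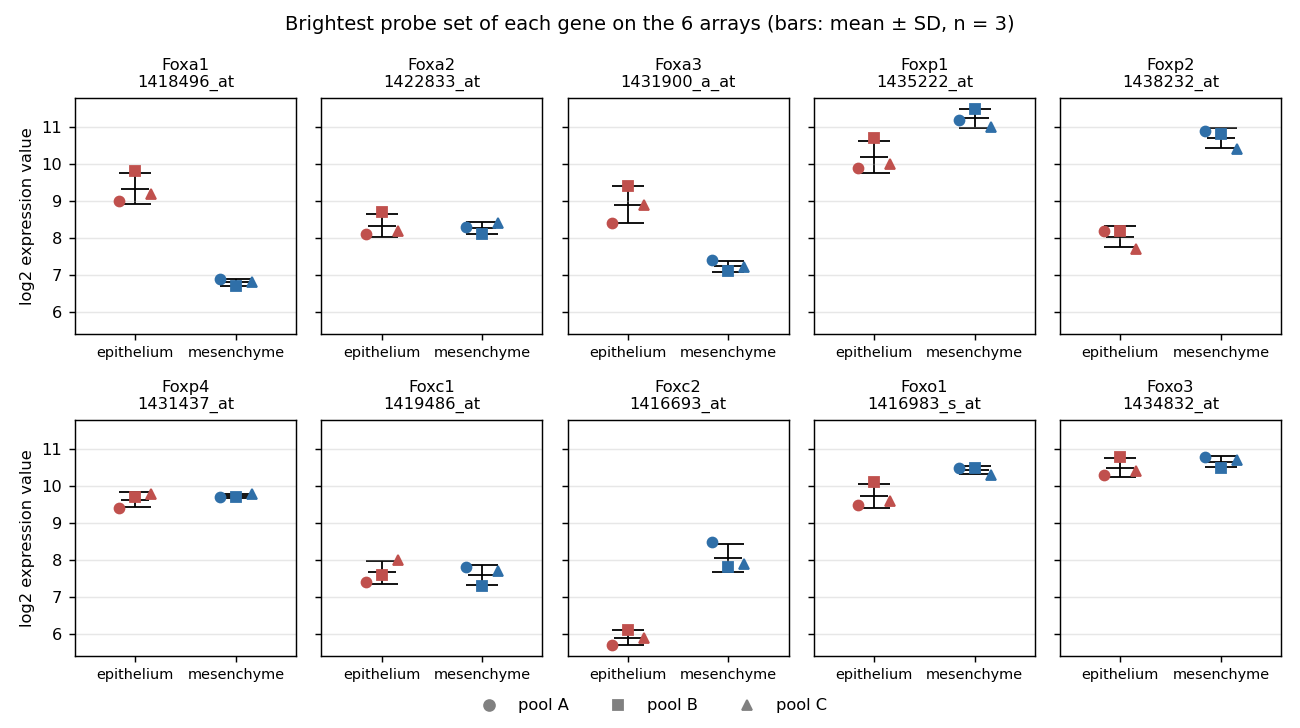
Log2 expression value (vertical axis) of the brightest probe set of each of the 10 genes in the 3 epithelium arrays (left in each panel) and the 3 mesenchyme arrays (right), with symbols for pools A, B and C and bars for mean ± SD. Foxa1 and Foxa3 lie higher in every epithelium array than in any mesenchyme array, Foxp1, Foxp2, Foxc2 and Foxo1 lie lower, and Foxa2, Foxp4, Foxc1 and Foxo3 overlap.

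Foxa1, the pioneer factor that opens chromatin for other factors of endoderm, had values of 9.0, 9.8 and 9.2 in epithelium A, B and C, against 6.9, 6.7 and 6.8 in mesenchyme A, B and C (probe set 1418496_at). Every epithelium array lay above every mesenchyme array. The means were 9.33 ± 0.42 in epithelium and 6.80 ± 0.10 in mesenchyme (SD, n = 3 each), a difference of 2.53 ± 0.24 with an adjusted p of 2.55e-11 by limma. A larger difference in either direction was seen for 6.118% of all genes.

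Foxa3, a member known from liver and gut endoderm, had values of 8.4, 9.4 and 8.9 in epithelium and 7.4, 7.1 and 7.2 in mesenchyme (1431900_a_at). The tissues did not overlap, and the epithelium pools spread over a wider range than the mesenchyme pools. The means were 8.90 ± 0.50 in epithelium and 7.23 ± 0.15 in mesenchyme, and the difference was 1.67 ± 0.24 with an adjusted p of 5.714e-07. For both genes epithelium B was the highest array, and it was also the epithelium array with the highest median.

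Foxa2, which is needed for the formation of definitive endoderm derivatives, had values of 8.1, 8.7 and 8.2 in epithelium and 8.3, 8.1 and 8.4 in mesenchyme (1422833_at). The tissues overlapped, and the means were 8.33 ± 0.32 in epithelium and 8.27 ± 0.15 in mesenchyme, a difference of 0.07 ± 0.23 (adjusted p = 0.853). Under other scalings of the arrays it ran from -0.194 to 0.40 and was never called, though its adjusted p was 0.02416 under quantile normalization (0.40), at under 2-fold. Each Foxa gene had only 1 probe set, so that none of these results has a second measurement of the same gene.

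The difference between 2 members was compared within each array, where a shift of the whole array cancels. Quantile normalization and cyclic loess move bright and dim probe sets by unequal amounts, and these do not cancel in full. Foxa1 minus Foxa2 was 0.9, 1.1 and 1.0 in the epithelium arrays and -1.4, -1.4 and -1.6 in the mesenchyme arrays, so that the tissue difference of Foxa1 exceeded that of Foxa2 by 2.467. Foxa2 minus Foxa3 was lower by 1.6 in epithelium than in mesenchyme, and Foxa1 minus Foxa3 was higher by 0.867. In all 8 pairs of members compared within the 4 subfamilies the tissues did not overlap. The exact permutation test (two-sided) gave p = 0.1 for each, 0.1 after adjustment over the 8 pairs. This is the smallest value that 3 arrays against 3 allow. How often other pairs of genes separate in this way was not computed, while 46.5% of single genes did not overlap.

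The 22 measured genes of the list linked to Foxa factors in endoderm held 14 that were higher in epithelium, none that was higher in mesenchyme and 8 that were not called, with a median difference of 2.53 against -0.17 over all genes. Over all genes, 8.2% were called higher in epithelium and 15.9% higher in mesenchyme. The largest differences on the list were those of Cdh1 (E-cadherin, 5.63), Afp (alpha-fetoprotein, 5.07), Cck (cholecystokinin, an enteroendocrine hormone, 4.20) and Agr2 (a goblet cell protein, 3.87). As the mean of its probe sets Afp had 3.50. The hormone gene Gcg, of glucagon and GLP-1, had a difference of 3.43, and Muc2, the main goblet cell mucin, one of 2.97. The transcription factor genes of the enteroendocrine lineage on the list were not called, with differences of 0.00 for Isl1, -0.27 for Pax6, 0.73 for Neurod1, -0.67 for Insm1 and 0.60 for Nkx2-2. Under equal medians, ribosomal centring and quantile normalization Neurod1 was called as well. Cdh1, Cck, Gcg, Sst, Neurod1, Ttr and Alb also stand on the cell type marker lists, so that the count is not independent of them. The list was also chosen with earlier results of these data known, so that its count describes the list and is not a test.

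Most markers of some other cell types were called higher in epithelium, as Foxa1 and Foxa3 were, where 8.2% of all genes were. Of 7 enteroendocrine markers 5 were higher in epithelium, and the log2 of their summed signal was 13.25 to 13.798 in epithelium and 11.176 to 11.323 in mesenchyme. Hepatocyte markers were higher in epithelium for 3 of 5 genes (12.952 to 13.499 in epithelium, 11.073 to 11.376 in mesenchyme) and pancreas markers for 3 of 5 (11.814 to 12.194 in epithelium, 10.26 to 11.029 in mesenchyme). The pancreas marker Cpa1 went the other way, lower in epithelium without overlap (-0.90, adjusted p = 0.001768 by limma over genes), at under 2-fold. Alb and Apoh, which mark hepatocytes, were not called, and no marker is at 0 because log2 values of this kind have no zero. The part of these cell types in the Foxa values was not tested.

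**Figure D2:**
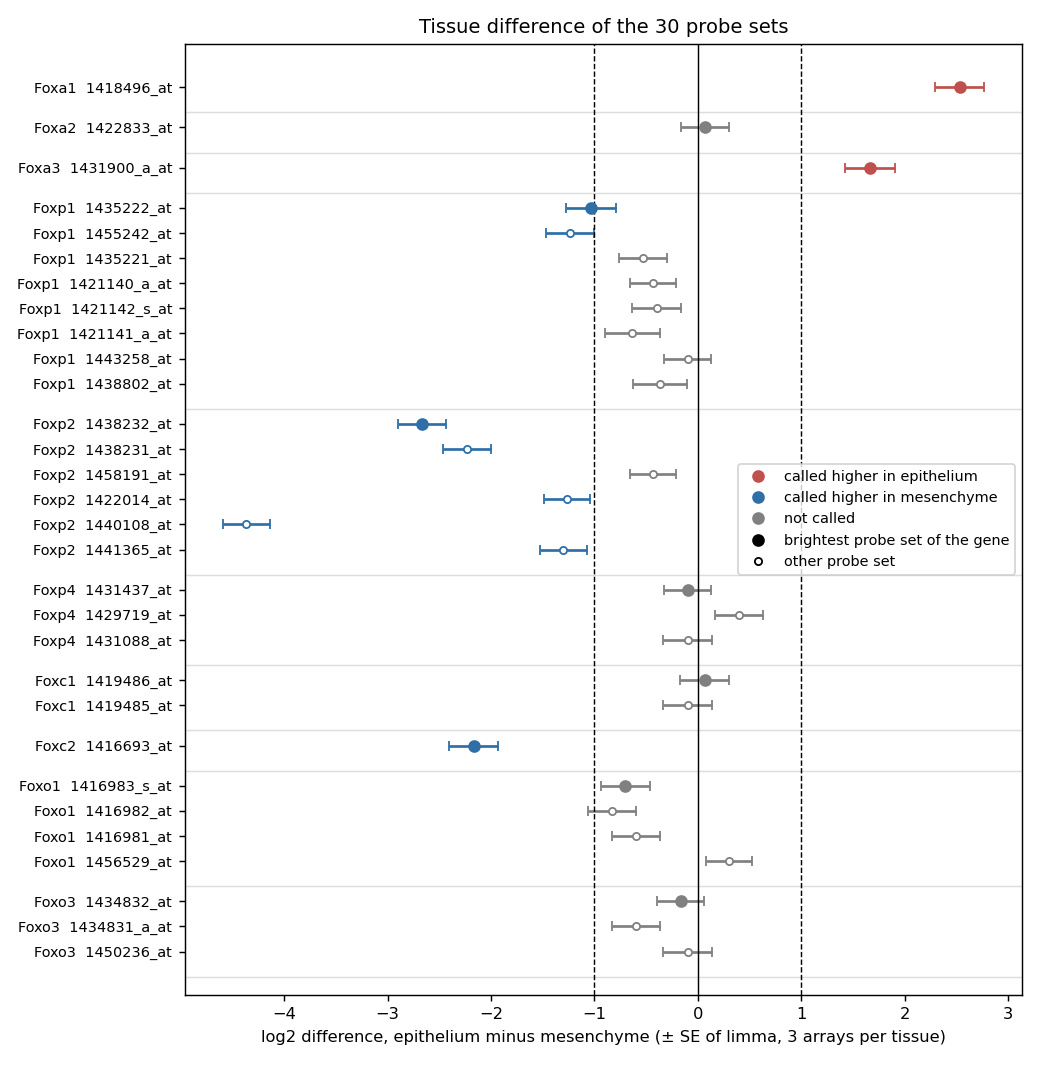
Difference between epithelium and mesenchyme (horizontal axis, log2 scale, epithelium minus mesenchyme) of each of the 30 probe sets, with bars for ± SE from limma over 3 arrays per tissue and dashed lines at a 2-fold difference. The 2 probe sets called higher in epithelium belong to Foxa1 and Foxa3, and the 8 called higher in mesenchyme belong to Foxp1, Foxp2 and Foxc2.

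Foxp2, a repressor best known from brain and lung development, had lower values in every epithelium array than in any mesenchyme array in all 6 of its probe sets, and 5 of the 6 were called, where 15.5% of all probe sets were called higher in mesenchyme and 29.3% were higher there without overlap. Its brightest probe set, 1438232_at, had values of 8.2, 8.2 and 7.7 in epithelium and 10.9, 10.8 and 10.4 in mesenchyme. The means were 8.03 ± 0.29 in epithelium and 10.70 ± 0.26 in mesenchyme, with a difference of -2.67 ± 0.24 (adjusted p = 5.264e-12), or 6.35-fold lower in epithelium. A larger difference was seen for 5.44% of all genes.

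The size of the Foxp2 difference depended on the probe set. Probe set 1440108_at had values of 5.3, 5.4 and 5.6 in epithelium and 10.0, 9.8 and 9.6 in mesenchyme, a difference of -4.37 ± 0.23 (adjusted p = 2.702e-18) and 20.6-fold lower in epithelium. Its epithelial values lay below the 5.91 to 6.24 that 15 control probe sets for bacterial genes averaged on the 6 arrays, so that its fold rests on a level near background. Probe set 1438231_at had 7.7, 8.1 and 7.7 in epithelium and 10.2, 10.0 and 10.0 in mesenchyme, a difference of -2.23.

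The remaining 3 Foxp2 probe sets had smaller differences. They were -1.27 for 1422014_at (7.5, 7.4 and 7.6 in epithelium, 8.8, 8.7 and 8.8 in mesenchyme) and -1.30 for 1441365_at (5.0, 5.0 and 5.3 in epithelium, 6.3, 6.7 and 6.2 in mesenchyme). The epithelial values of 1441365_at lay below the bacterial controls of those arrays, and its mesenchymal values only little above the 5.95, 6.24 and 6.13 of theirs, with mesenchyme C at 6.2 against 6.13. Probe set 1458191_at had a difference of -0.43 (adjusted p = 0.1335), from 8.6, 8.8 and 8.7 in epithelium and 9.2, 9.1 and 9.1 in mesenchyme, and was not called. The call of 1422014_at ended under quantile normalization (-0.944), equal medians (-0.967) and ribosomal centring (-0.949), and that of 1441365_at under ribosomal centring (-0.982). Within arrays, 4 of the 5 other probe sets differed from 1438232_at in the tissue difference without overlap. The exact permutation p was 0.1 for each, and 0.2222 after adjustment over 20 comparisons of probe sets of 1 gene. How often probe sets of other genes differ in this way was not computed. Which transcripts each probe set reads is not given in the sources used here.

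Foxp1, a repressor of many tissues that can dimerise with Foxp2 and Foxp4, had differences below 0 for all 8 of its probe sets, of which 2 were called and 4 did not overlap between the tissues, where 15.5% of all probe sets were called higher in mesenchyme and 29.3% were higher there without overlap. The brightest, 1435222_at, had values of 9.9, 10.7 and 10.0 in epithelium and 11.2, 11.5 and 11 in mesenchyme, a difference of -1.03 ± 0.24 (adjusted p = 7.136e-04). Probe set 1455242_at had 9.7, 10.3 and 10.1 in epithelium and 11.4, 11.2 and 11.2 in mesenchyme, a difference of -1.23 ± 0.23 (adjusted p = 3.728e-05). In both probe sets the lowest mesenchyme array lay above the highest epithelium array. The other 6 had differences of -0.10 to -0.63 and adjusted p from 0.05961 to 0.7817. Within arrays, 3 of the 7 other probe sets had a tissue difference apart from that of 1435222_at without overlap. They were nearer to 0 by 0.50, 0.633 and 0.933 (exact permutation p = 0.1, 0.2222 after adjustment over 20 comparisons). The share of such cases among probe sets of other genes was not computed.

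The call of Foxp1 lay close to the 2-fold limit. With 1435222_at, the difference was -0.861 under quantile normalization, -0.879 under cyclic loess, -0.733 with equal medians and -0.715 with ribosomal centring. It was -0.883 without epithelium A, -0.933 without epithelium C and -0.90 without mesenchyme B, and -0.592 as the mean of all probe sets. None of these reached 2-fold, while the sign was the same in all of them. Probe set 1455242_at lost its call with equal medians (-0.933) and ribosomal centring (-0.915).

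Foxp4, the third Foxp gene among the 10 members, was not called by any of its 3 probe sets. The brightest, 1431437_at, had values of 9.4, 9.7 and 9.8 in epithelium and 9.7, 9.7 and 9.8 in mesenchyme (difference -0.10, adjusted p = 0.7817). Probe set 1429719_at had 9.5, 10.0 and 9.6 in epithelium and 9.3, 9.5 and 9.1 in mesenchyme (0.40, adjusted p = 0.1863). Under the 4 scalings other than spike-in centring its difference was 0.681 to 0.722, with adjusted p from 0.003589 to 0.007506, at under 2-fold. The third, 1431088_at, had a difference of -0.10, and all 3 overlapped between the tissues. Over the scalings the difference of the brightest probe set ran from -0.361 to 0.218. Within arrays, Foxp2 minus Foxp4 was -1.2, -1.5 and -2.1 in epithelium and 1.2, 1.1 and 0.6 in mesenchyme, a gap of -2.567 between the tissues. Foxp1 minus Foxp4 gave -0.933 and Foxp1 minus Foxp2 gave 1.633.

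Of 15 genes for corepressors known to bind Foxp factors, 3 were higher in mesenchyme, none was higher in epithelium and 12 were not called, with a median difference of -0.50 against -0.17 over all genes. This count is near the 15.9% of all genes called higher in mesenchyme. The 3 were Mta1 (-1.80), the histone deacetylase gene Hdac2 (-1.77) and Mbd3 (-1.07), whose products are parts of the NuRD chromatin complex. Mbd3 was not called under quantile normalization, cyclic loess, equal medians, ribosomal centring or without epithelium A (-0.739 to -0.95), and Mta1 was not called as the mean of its probe sets (-0.867). The corepressor gene Ctbp1 had a difference of -0.87 and was not called.

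Foxc2, a factor of lymphatic vessels and their valves, was 4.49-fold lower in epithelium. It had values of 5.7, 6.1 and 5.9 in epithelium and 8.5, 7.8 and 7.9 in mesenchyme (1416693_at), and the tissues did not overlap. The means were 5.90 ± 0.20 in epithelium and 8.07 ± 0.38 in mesenchyme, with a difference of -2.17 ± 0.24 (adjusted p = 1.148e-09). The 15 bacterial control probe sets averaged 5.91, 6.05 and 6.06 on the 3 epithelium arrays, close to the epithelial Foxc2 values, and a fold is understated where 1 tissue lies near background.

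Foxc1, its closest relative, which acts in the eye, the heart and the skeleton, was not called by either of its 2 probe sets. Probe set 1419486_at had values of 7.4, 7.6 and 8.0 in epithelium and 7.8, 7.3 and 7.7 in mesenchyme (0.07, adjusted p = 0.8533). Probe set 1419485_at had 5.5, 5.9 and 5.8 in epithelium and 5.5, 6.1 and 5.9 in mesenchyme (-0.10), values around the control level in both tissues. Both overlapped, and over the scalings the difference of the brighter ran from -0.194 to 0.385. Foxc1 minus Foxc2 was 1.7, 1.5 and 2.1 in the epithelium arrays and -0.7, -0.5 and -0.2 in the mesenchyme arrays, a gap of 2.233 between the tissues.

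Of the 21 genes linked to Foxc factors in vessels, 19 were higher in mesenchyme, none was higher in epithelium and 2 were not called, with a median difference of -2.23. Over all genes, 15.9% were called higher in mesenchyme and 8.2% higher in epithelium. This list too was chosen with earlier results of these data known, so that its count is not a test. By the brightest probe sets, the largest differences on the list were those of the chemokine gene Cxcl12 (-5.37), the lymphatic receptor gene Lyve1 (-5.23), the angiopoietin receptor gene Tek (-4.50) and the receptor gene Cxcr4 (-3.83). As the mean of its probe sets Cxcl12 had -2.811, below these other 3 in size. Prox1, the factor that sets lymphatic identity, had a difference of -0.70 from values of 6.0 to 6.4 in epithelium and 6.6 to 7.2 in mesenchyme, and the Notch ligand gene Dll4 one of -0.77. Neither was called, and Dll4 was called under spike-in centring (-1.028). The log2 of the summed signal of the 8 endothelial and lymphatic markers was 10.868 to 11.116 in epithelium and 14.367 to 14.683 in mesenchyme. All of these markers but Plvap also stand on the list linked to Foxc factors, so that the 2 are not independent. The same sum was 11.032 to 11.333 in epithelium and 13.263 to 13.349 in mesenchyme for the 7 neuron and glia markers, and 11.561 to 11.766 in epithelium and 16.876 to 16.926 in mesenchyme for the 7 smooth muscle markers. The part of these cell types in the Foxc2, Foxp1 and Foxp2 values was not tested.

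Foxo1 and Foxo3 were not called at 2-fold. Foxo1, which acts downstream of insulin in liver and in endothelium, had values of 9.5, 10.1 and 9.6 in epithelium and 10.5, 10.5 and 10.3 in mesenchyme in its brightest probe set (1416983_s_at). The arrays did not overlap, and the difference was -0.70 ± 0.23 (adjusted p = 0.01548). Probe set 1416982_at had 9.4, 9.9 and 9.3 in epithelium and 10.5, 10.3 and 10.3 in mesenchyme (-0.83, adjusted p = 0.003959), and 1416981_at had 9.4, 9.9 and 9.6 in epithelium and 10.1, 10.2 and 10.4 in mesenchyme (-0.60, adjusted p = 0.03712). These 3 probe sets were lower in epithelium without overlap, as 29.3% of all probe sets were. Their adjusted p was under 0.05, which 37.5% of all probe sets reached at any size, 26.8% of them higher in mesenchyme as a share of all.

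The adjusted p of 1416983_s_at was over 0.05 under equal medians (0.07068), ribosomal centring (0.08932) and the replicate block (0.05373), and without any 1 of epithelium A, epithelium C, mesenchyme A or mesenchyme B (0.06066 to 0.08433). That of 1416981_at was over 0.05 under all 5 scalings (0.0534 to 0.199), the replicate block (0.08736) and without any 1 array other than epithelium B (0.05976 to 0.1605).

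The fourth Foxo1 probe set went the other way. Probe set 1456529_at had 8.5, 8.7 and 8.7 in epithelium and 8.3, 8.3 and 8.4 in mesenchyme, a difference of 0.30 (adjusted p = 0.326) that did not pass. It did not overlap between the tissues, and within arrays its tissue difference lay 1.0 above that of 1416983_s_at, without overlap (exact permutation p = 0.1, 0.2222 after adjustment over 20 comparisons). Probe set 1416982_at passed 2-fold under spike-in centring (-1.094) and without epithelium B (-1.017).

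Foxo3, which acts in stress defence and in the ovary, had values of 10.3, 10.8 and 10.4 in epithelium and 10.8, 10.5 and 10.7 in mesenchyme (1434832_at). These overlapped, with a difference of -0.17 (adjusted p = 0.6275), and over the scalings it ran from -0.428 to 0.151. Its second probe set, 1434831_a_at, had 9.8, 10.2 and 9.7 in epithelium and 10.6, 10.4 and 10.5 in mesenchyme, a difference of -0.60 (adjusted p = 0.03668) without overlap. That p was over 0.05 under the other scalings but cyclic loess (0.0534 to 0.1777), under the replicate block (0.09709) and without any 1 array other than epithelium B (0.06427 to 0.1981). The third, 1450236_at, had -0.10 (adjusted p = 0.7817). Foxo1 minus Foxo3, by their brightest probe sets, was lower by 0.533 in epithelium than in mesenchyme.

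Of 20 measured genes of the insulin and Akt pathway that regulates Foxo factors, 1 was higher in epithelium, 5 were higher in mesenchyme and 14 were not called, with a median difference of -0.18, where 24.1% of all genes were called. The count is near that share. The genes higher in mesenchyme were the insulin receptor substrate gene Irs1 (-3.93), the growth factor receptor gene Igf1r (-1.93) and 3 genes for subunits of phosphoinositide 3-kinase, Pik3r3 (-1.87), Pik3r1 (-1.63) and Pik3ca (-1.5). Sgk2, a kinase related to Akt, was higher in epithelium (1.03) and was not called under spike-in centring or without epithelium B or mesenchyme B (0.772 under spike-in centring). Irs1 had values of 7.8, 7.8 and 7.7 in epithelium and 11.8, 11.9 and 11.4 in mesenchyme, while Irs2 had a difference of 0.80 and Insr, the insulin receptor gene, one of 0.27, neither of them called. Irs2 was called under 4 of the 5 scalings, all but spike-in centring, with a difference of up to 1.133. Akt1 (-0.13) and Akt2 (-0.50) were not called.

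Of 28 known Foxo target genes, 5 were higher in epithelium, 6 were higher in mesenchyme and 17 were not called. Their median difference was 0.22. Over all genes, 8.2% were called higher in epithelium and 15.9% higher in mesenchyme, and the count higher in mesenchyme is near its share. The split of the targets depended on the scaling, with 8 higher in epithelium and 2 higher in mesenchyme under equal medians and under ribosomal centring. It was 8 and 4 under quantile normalization, 7 and 4 under cyclic loess, and 5 and 7 under spike-in centring. Those higher in epithelium included Pck1 (6.00) and G6pc (2.43), enzymes of glucose production, Trim63 (2.10), a ubiquitin ligase of muscle atrophy, and Cdkn1a (1.43), an inhibitor of the cell cycle. Pck1 had values of 11.8, 12.5 and 11.2 in epithelium and 5.7, 6.0 and 5.8 in mesenchyme. The bacterial controls averaged 5.95, 6.24 and 6.13 on the mesenchyme arrays, so that its mesenchymal signal was not above background, and the mean of its probe sets gave a difference of 3.478. Those higher in mesenchyme included Klf2 (-2.40), an endothelial factor, Fbxo32 (-2.10), another ubiquitin ligase of muscle atrophy, Cdkn1b (-1.23), another inhibitor of the cell cycle, and Sesn3 (-1.20), a stress response gene. In the deposited values the targets thus moved in both directions, also within the pairs Trim63 with Fbxo32 and Cdkn1a with Cdkn1b. Cdkn1a (0.80) was not called as the mean of its probe sets, Cdkn1b not under equal medians, ribosomal centring or as that mean, and Sesn3 not under 4 scalings or as that mean. Of the other 2 called higher in mesenchyme, Txnip (-1.13) was not called under equal medians, ribosomal centring or without epithelium C, and Gabarapl1 (-1.0) not under 4 scalings or without epithelium A, epithelium C, mesenchyme B or mesenchyme C.

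**Figure D3:**
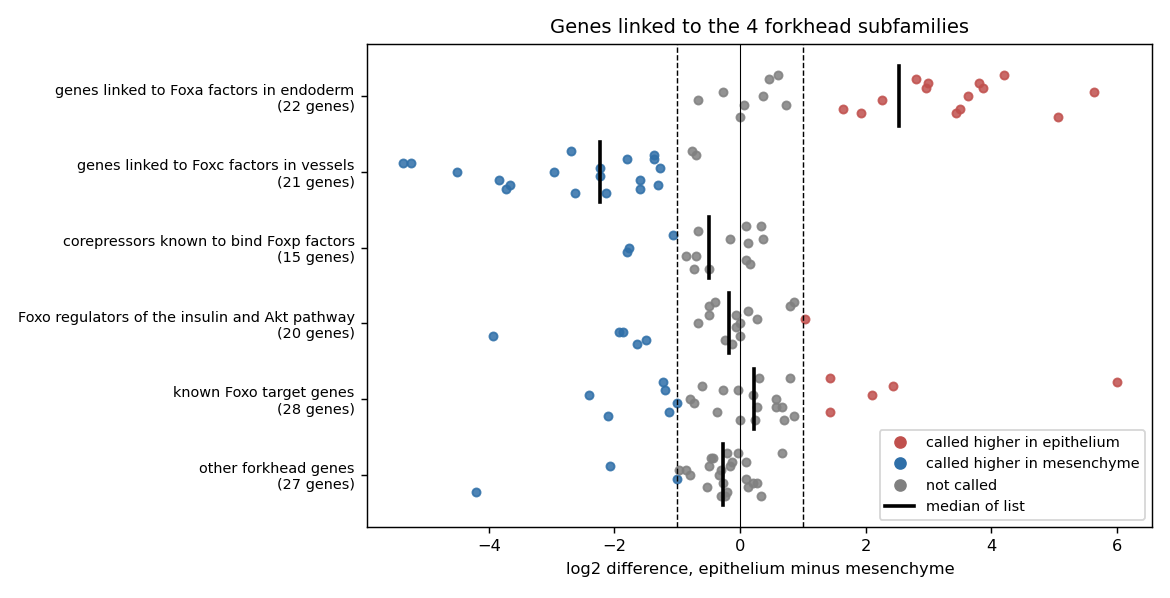
Difference between epithelium and mesenchyme (horizontal axis, log2 scale, epithelium minus mesenchyme) of each measured gene of 6 lists, 1 point per gene, with the median of each list as a bar and dashed lines at a 2-fold difference. The genes linked to Foxa factors that were called lie to the right and those linked to Foxc factors to the left, while the Foxo targets lie on both sides.

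The other 27 forkhead genes on the array held 3 that were higher in mesenchyme, none that was higher in epithelium and 24 that were not called. Their median difference was -0.27. Foxp3 (0.27) and Foxo4 (-0.17), of the Foxp and Foxo subfamilies but not among the members, were 2 of those not called. Over all genes, 15.9% were called higher in mesenchyme and 8.2% higher in epithelium, so that the count of 3 is near its share. The 3 were Foxf2 (-4.20, adjusted p = 4.185e-17 over genes), a factor of gut mesenchyme, Foxj2 (-2.07, adjusted p = 1.719e-08) and Foxn3 (-1.0, adjusted p = 7.974e-04). Foxf2 had values of 6.2, 6.2 and 6.7 in epithelium and 10.9, 10.7 and 10.1 in mesenchyme, and a difference of -2.233 as the mean of its probe sets. Foxn3 lies at the 2-fold limit and was called in 8 of 18 alternative settings. Foxf1, the relative of Foxf2, had a difference of -0.80 in its brightest probe set and of -2.72 as the mean of its probe sets, and was called by the mean. No forkhead gene outside the members was called higher in epithelium, while Foxa1 and Foxa3 were, and with so few genes this contrast was not tested.

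The genes whose 6 values, each centred on its own mean, lay nearest to those of a called member were listed over the 6 arrays, which shared 2 tissues. For Foxa1 they were the Wnt receptor gene Fzd5, the epithelial splicing factor gene Esrp1 and the retinol-esterifying enzyme gene Lrat, at distances of 0.183 to 0.231, with differences of 2.40 to 2.47. For Foxa3 they were Gucd1, Prr5l and Mxd1 (0.168 to 0.22), with differences of 1.63 to 1.77. For Foxp2 they were the semaphorin gene Sema4c, the protease gene Htra3 and the Wnt modulator gene Dact1 (0.231 to 0.271), with differences of -2.60 to -2.73. These lists show which genes shared the tissue pattern and pool spread of a member most closely. For Foxc2 they were Mapre2, Lims1 and Pcdh20 (0.231 to 0.235), and in these as in Foxc2 mesenchyme A was the highest array. For Foxp1 they were Kcnq3, Zmynd15 and Bcl9 (0.183 to 0.22). Near-equal differences and a shared highest array follow from this choice by distance over the same 6 values and are not a separate result.

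**Figure D4:**
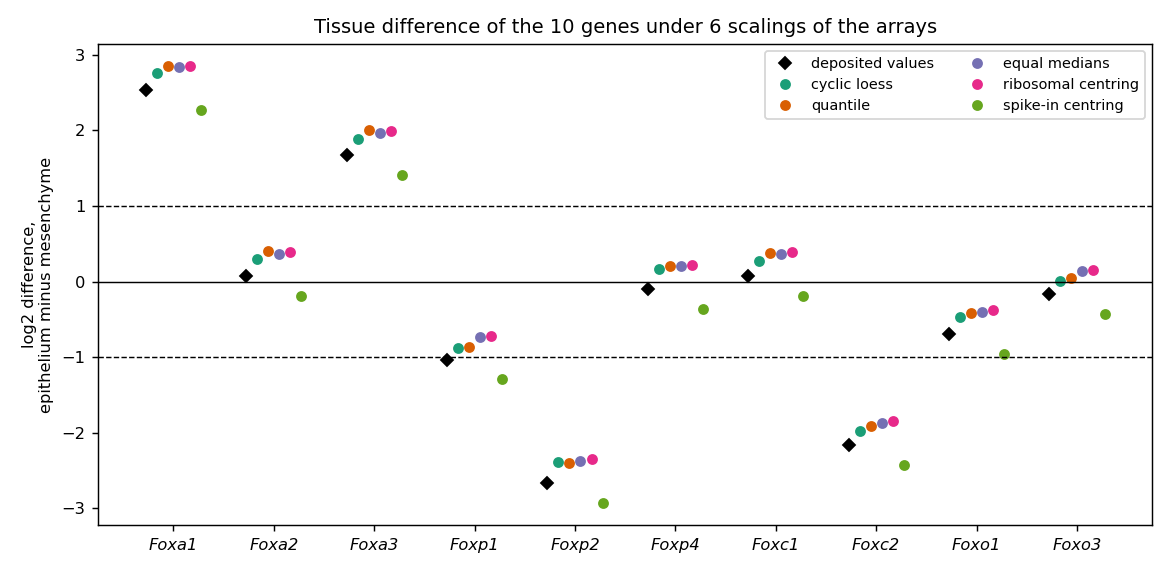
Difference between epithelium and mesenchyme (vertical axis, log2 scale, epithelium minus mesenchyme) of the brightest probe set of the 10 genes in the deposited values (diamonds) and under 5 scalings of the arrays (circles), with dashed lines at a 2-fold difference. Foxa1, Foxa3, Foxp2 and Foxc2 stay beyond the lines under all 6, Foxp1 crosses its line, and Foxa2, Foxp4, Foxc1 and Foxo3 lie on both sides of 0.

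Scaling moved all members together, though by unequal amounts under quantile normalization and cyclic loess. The median difference over genes moved by 0.27 under quantile normalization, 0.21 under cyclic loess, 0.30 with equal medians, 0.32 with ribosomal centring and -0.26 with spike-in centring. The spike-in shift rests on the low spike-in mean of a single array, mesenchyme B (9.80). Over these scalings Foxa1 ran from 2.272 to 2.851, Foxa3 from 1.406 to 2.00, Foxp2 from -2.928 to -2.349 and Foxc2 from -2.428 to -1.849, and all 4 were called under every alternative run. The directions of Foxa2, Foxp4, Foxc1 and Foxo3 turned with the scaling, and that of Foxo1 did not (-0.961 to -0.382).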

How the data were processed

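Gene expression was measured in 3 pools of epithelium and 3 pools of mesenchyme, grouped by the labels. Per the submitters' processing notes, the authors used RMA, and the deposited values are on the log2 scale. The RMA settings, and any scaling of the arrays afterwards, are not given in the sources used here. Values were rounded to 0.1, ranged from 4.6 to 15.2 and carried no detection calls.

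Of 45101 probe sets, 64 controls were set aside. Platform symbols were updated through RefSeq names (GRCm38.p6): 34945 probe sets had 1 symbol, 932 several and 9160 none. The probe sets were tested with limma 3.58.1 (R 4.3.3), lmFit and eBayes, without covariates (4 residual and 31.71 prior degrees of freedom), with Benjamini-Hochberg adjustment over probe sets. A gene took the result of its brightest probe set (by the mean of the 6 arrays), adjusted over genes. The fit was tested on simulated data.

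The members and lists were chosen with earlier results of these data known. The genes named are all members, up to 4 called genes per list with the largest difference and up to 4 of its minority direction, called forkhead genes, and the 3 nearest genes of each called member; other genes named were chosen after their values were seen. Alternatives were 5 scalings (ribosomal centring on 98 probe sets, spike-in centring on 18), a filter on dim probe sets (mean of at least 8 in a tissue), an intensity trend, robust moderation, a replicate block, leaving out each array, and other choices of probe set.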

Additional observations from a re-analysis of the deposited data

How the results depend on the processing

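No direction of a called member turned under any alternative run. Of 10 member probe sets called, 6 were called under ribosomal centring (2 higher in epithelium, 4 higher in mesenchyme), a setting that moves all differences towards epithelium. Leaving out 1 array gave 9 to 11 member probe sets and 4 to 5 member genes. The other forkhead genes called were 6 under spike-in centring, against 3, and 2 to 5 when 1 array was left out (5 without epithelium B). Among single member probe sets and genes, calls were lost 23 times and gained 2 times over the alternatives, against 629 times with no change. For Foxp1 with spike-in centring and mesenchyme B left out, a setting chosen after seeing the data, the difference was -0.869 and the adjusted p over probe sets 0.05029. The split of called genes between epithelium and mesenchyme was 1489 to 2891 in the deposited values, 1921 to 2165 under quantile normalization, 1791 to 2227 under cyclic loess, 2140 to 2093 with equal medians, 2140 to 2037 with ribosomal centring and 1128 to 3876 with spike-in centring. The split of called probe sets was 2695 to 6976, 3786 to 4984, 3417 to 5283, 4100 to 4912, 4101 to 4755 and 1990 to 9487 in the same order. Which scaling is right was not tested. Spike-in centring departs from the deposited values mainly through mesenchyme B. With that array left out, Foxa1 had a difference of 2.515 under spike-in centring, a setting chosen after seeing the data, and 2.483 in the deposited values. The filter on dim probe sets gave no value for Foxp1 1438802_at, Foxp2 1441365_at, Foxc1 and Foxo3 1450236_at. With the letters A, B and C as a replicate block, 10 member probe sets and 5 member genes were called and no call of a member changed; deviations of arrays of the same letter correlated at -0.311, -0.151 and 0.12, and the labels do not state a pairing. Signal near background carries no detection call, which limits the folds of Foxc2, of Foxp2 probe sets 1440108_at and 1441365_at, and of Pck1. Other named folds near background include those of Cxcr4 (6.0, 6.0 and 5.9) and Foxf2 (6.2, 6.2 and 6.7) by their epithelial values. By their mesenchymal values they include those of Gcg (6.1, 6.2 and 6.0) and Trim63 (5.8, 6.0 and 6.6). The mesenchymal values of Foxa1 (6.9, 6.7 and 6.8) also lay not far above the bacterial controls there (5.95, 6.24 and 6.13), so that its fold may have the same limit.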
